A study of Homo sapiens with 4 samples.

Results

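The G1 cyclins, the kinases they switch on, the phosphatase CDC25A and the transcription factor MYC were followed as 10 genes: CCND1, CCND2, CCND3, CCNE1, CCNE2, CDK2, CDK4, CDK6, CDC25A and MYC. They were chosen by symbol, and each had exactly 1 row on the array with that symbol alone, so 10 of the 18377 named genes are described. The cells were HuCCT1, an established line from a human cholangiocarcinoma, a cancer of the bile duct. One group was untreated, a further group was given the agent labelled VPA, another the agent labelled GEM, and the last the GEM_VPA combination, with 1 array per group and 4 arrays in all. VPA and GEM are read here with their usual meanings, valproic acid, which inhibits histone deacetylases, and gemcitabine, a nucleoside analogue that disturbs DNA synthesis. The sources used here give no dose, exposure time or number of cultures behind an array, and all groups are the same line, so nothing here extends beyond it.

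A cell commits to DNA replication in G1. Growth signals, partly through MYC, raise D-type cyclins, which bind CDK4 and CDK6 and begin to phosphorylate the retinoblastoma protein. That phosphorylation releases E2F factors, which switch on CCNE1, CCNE2, CDC25A and the replication genes. Cyclin E bound to CDK2 then completes the step, and CDC25A removes the phosphates that hold CDK2 inactive. DNA damage signalling stops this step by destroying the CDC25A protein and by inducing p21, the product of CDKN1A, neither of which need appear in the messenger RNA of the G1 genes themselves. CCND1 and MYC are common points of gain in epithelial cancers.

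The sequence before the starts of the genes was searched for motifs of E2F and MYC. Upstream sequence was at hand for 5 of the 10 genes (CDC25A, CDK4, CCNE1, CDK6 and CCND3, with 8 windows). Shown are the 250 bases before the start of the 3 of these genes that were lower on both single-drug arrays, 5′ to 3′ on the gene's own strand, from RefSeq on GRCh38.p14. The windows lie at chr3:48188418-48188667 on the minus strand for CDC25A, chr12:57752311-57752560 on the minus strand for CDK4 and chr19:29811741-29811990 on the plus strand for CCNE1. Capitals mark an E2F-type motif (TTTCCCGC, TTTCGCGC, TTTGCCGC or TTTGGCGC) or the E-box CACGTG that MYC and its partner MAX bind, searched on both strands.
CDC25A: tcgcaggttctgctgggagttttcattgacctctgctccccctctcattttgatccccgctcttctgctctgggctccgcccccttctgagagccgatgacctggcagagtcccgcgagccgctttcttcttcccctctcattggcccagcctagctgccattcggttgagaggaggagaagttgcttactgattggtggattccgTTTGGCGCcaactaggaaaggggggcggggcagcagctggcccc
CDK4: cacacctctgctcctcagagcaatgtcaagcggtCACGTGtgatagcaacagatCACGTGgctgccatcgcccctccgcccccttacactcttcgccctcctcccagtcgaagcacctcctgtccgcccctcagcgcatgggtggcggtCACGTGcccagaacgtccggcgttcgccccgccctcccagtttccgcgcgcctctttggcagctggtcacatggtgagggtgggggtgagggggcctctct
CCNE1: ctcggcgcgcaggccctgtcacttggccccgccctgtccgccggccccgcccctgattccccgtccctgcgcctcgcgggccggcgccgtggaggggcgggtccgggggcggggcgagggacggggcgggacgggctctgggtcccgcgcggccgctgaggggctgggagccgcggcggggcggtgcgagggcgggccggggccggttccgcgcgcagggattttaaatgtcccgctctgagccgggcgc
The CDC25A window held 1 E2F-type match, TTTGGCGC, which ran from 44 to 37 bases before the start, and no E-box. The CDK4 window held 3 E-boxes, beginning 216, 196 and 101 bases before the start, and no E2F-type match. The CCNE1 window and the 5 windows of CDK6 and CCND3 held neither motif. Of all 35116 windows of this length, 2.79% held an E2F-type match and 6.34% an E-box. These are letters in a window and not measured binding, and the arrays do not report on it.

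Levels are log2 intensities, so a difference of 1 is 2-fold. They are compared between arrays for the same gene and never between genes, because probes differ in brightness. With 1 array per group there was no replicate, and single differences carry no error and no p-value. A gene was counted as different when it moved at least 2-fold and the higher of its levels reached the median of all rows on its array. Of the 10 genes, 9 lay above the median on all 4 arrays, and CCND2 lay below it on all 4.

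The untreated and combination arrays were close to each other (correlation 0.996 over 28869 rows), as were the VPA and GEM arrays (0.996), while the other pairs correlated between 0.984 and 0.987. With 1 array per group the labels could not be checked, and every difference below takes them as given. Epithelial identity was plain, with all 7 biliary epithelial markers above the median on every array and a summed log2 level of 84.3 to 89.3, lowest on the combination array and highest on the VPA array. Endothelial markers were below the median throughout (0 of 5, sums 32.4 to 32.8), and 1 of 6 fibroblast markers was above it (COL1A1, sums 41.8 to 42.3). Hepatocyte markers had 2 of 6 above it (sums 40.5 to 42.1) and leukocyte markers 1 or 2 of 6 (sums 42.2 to 46.0), with PTPRC, the defining leukocyte gene, at 5.21 to 5.34. The epithelial, leukocyte, hepatocyte and fibroblast sums were all higher on both single-drug arrays than on the other arrays. Among them EPCAM, COL1A2 and COL3A1 ran the other way, lower on both single-drug arrays than on both others. Some further markers, such as APOA1 and TTR, overlapped. CD68 and LYZ made up most of the leukocyte difference, SERPINA1 most of the hepatocyte difference and COL1A1 most of the fibroblast difference. The part of these markers in the differences below was not tested.

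**Figure D1:**
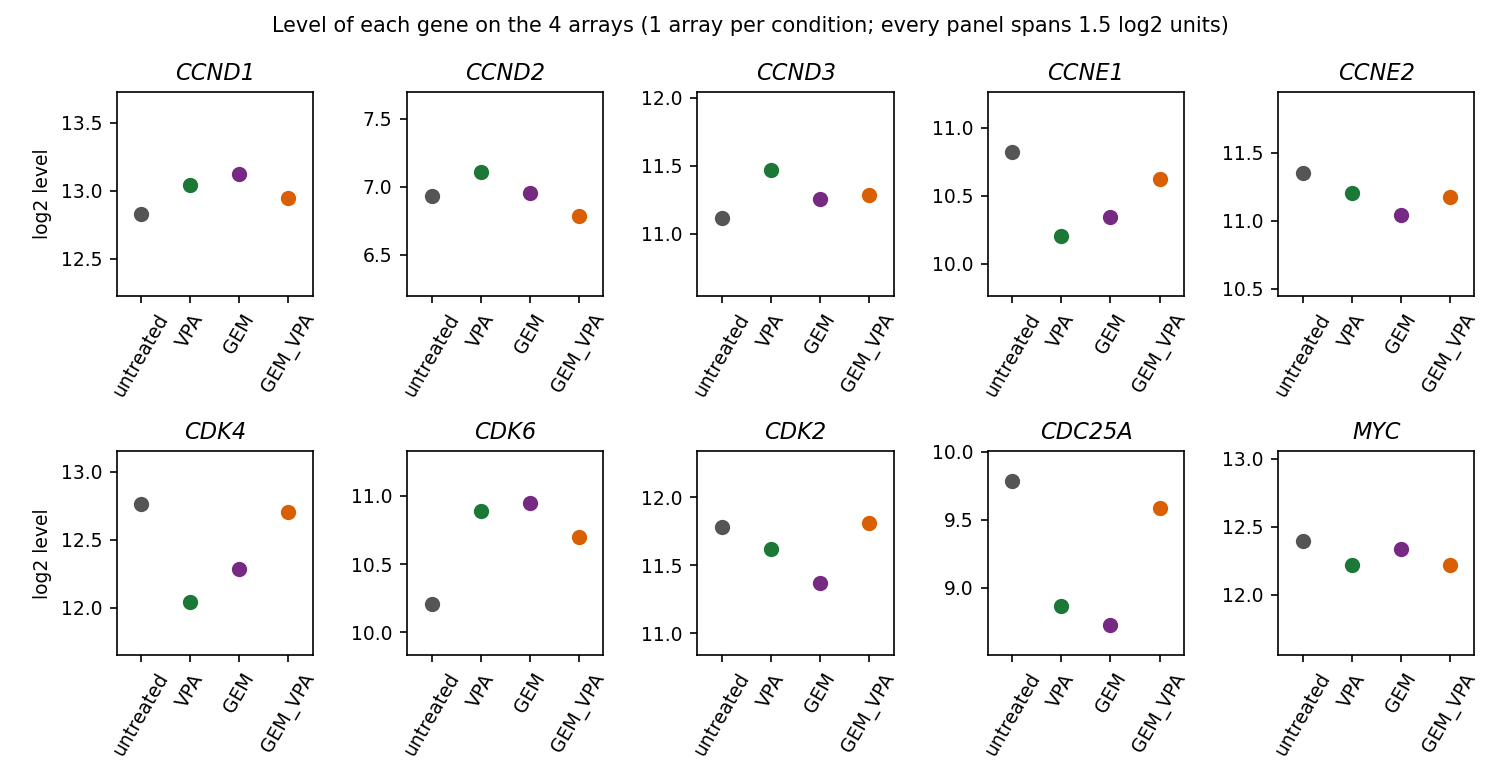
Log2 level (vertical axis, each panel spanning 1.5 log2 units) of each of the 10 genes on the untreated, VPA, GEM and GEM_VPA arrays (horizontal axis), 1 point per array. CDC25A, CDK4 and CCNE1 are low on both single-drug arrays, CDK6 is low on the untreated array, and MYC spans 0.18.

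Of the cyclin E arm, its activator CDC25A showed the largest decrease of the 10 genes with either single drug. CDC25A, the phosphatase that activates CDK2, read 9.78 untreated, 8.87 with VPA, 8.72 with GEM and 9.58 with the combination. Both single-drug arrays were thus well below the untreated and combination arrays, with a gap between them. CDC25A was 1.89-fold lower with VPA (log2 difference -0.92) and 2.09-fold lower with GEM (-1.06), and 1.15-fold lower with the combination (-0.20). The GEM value was the only difference of the 10 genes in any of the 6 pairwise comparisons to reach 2-fold. Few genes were lower still, 338 of the 11611 genes at level with VPA and 286 of 11593 with GEM.

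CCNE1, a cyclin E that partners CDK2, read 10.82 untreated, 10.21 with VPA, 10.34 with GEM and 10.63 with the combination. It had the same order of pairs as CDC25A at a smaller size, with log2 differences from untreated of -0.61, -0.48 and -0.19. CCNE2, the second cyclin E, read 11.35, 11.20, 11.04 and 11.18 in that order of arrays, and its combination level lay between the single-drug levels. CCNE2 differed from untreated by -0.15, -0.31 and -0.17. CDK2 itself read 11.79 untreated, 11.62 with VPA, 11.37 with GEM and 11.81 with the combination. The GEM array was the low one for CDK2 (-0.42), and VPA differed by -0.16. Within the same arrays CDC25A moved further than CDK2, by -0.75 with VPA and -0.65 with GEM on the log2 scale.

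The partners of cyclin D moved in opposite directions. CDK4, a cyclin D kinase, read 12.76 untreated, 12.04 with VPA, 12.29 with GEM and 12.71 with the combination. Both single-drug arrays were low, VPA by 1.65-fold (-0.72) and GEM by 1.39-fold (-0.47), while the combination differed from untreated by -0.05. CDK6, the alternative cyclin D kinase, read 10.21 untreated, 10.89 with VPA, 10.95 with GEM and 10.70 with the combination. All 3 treated arrays were above untreated for CDK6, by 1.60-fold (0.68), 1.67-fold (0.74) and 1.41-fold (0.49). Set against CDK4 on the same arrays, CDK6 shifted by 1.40 with VPA, 1.21 with GEM and 0.54 with the combination on the log2 scale, a quantity that does not depend on how an array is centred.

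CDK6 differed from the other genes on the combination array. Its difference from untreated there, 0.49, was the largest in size of the 10, and only 229 of 11489 genes at level were higher in that comparison. The robust SD of all gene differences between the combination and untreated arrays was 0.147. That is a spread over all 18377 genes, with those below the median included, and not a replicate error. The remaining 9 genes differed by between -0.20 and 0.17. With VPA, 571 of 11611 genes were higher than CDK6, and with GEM 394 of 11593.

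The D cyclins differed from untreated by 0.35 at most. CCND1, which encodes cyclin D1, read 12.83 untreated, 13.04 with VPA, 13.12 with GEM and 12.95 with the combination. Each treated array was higher than untreated, by 0.21, 0.29 and 0.12. CCND3, which encodes cyclin D3, read 11.12, 11.47, 11.26 and 11.29, highest with VPA (0.35). CCND2, which encodes cyclin D2, read 6.94, 7.11, 6.95 and 6.78, all below the array medians, so its levels are not shown to be above background. Its GEM difference of 0.02 turned to -0.01 and -0.02 after a second quantile normalization of the columns and when arrays were centred on their medians (median centring).

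MYC, which drives growth and biosynthetic genes, was the steadiest of the 10. It read 12.40 untreated, 12.22 with VPA, 12.34 with GEM and 12.22 with the combination, a span of 0.18. Its differences from untreated were -0.18, -0.06 and -0.18, and the combination and VPA arrays were level (-0.0017, or 0.06 under median centring). In the VPA and GEM comparisons, 4237 and 5608 genes at level were lower still. Fewer genes, 1757 of 11489, were lower than MYC with the combination.

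**Figure D2:**
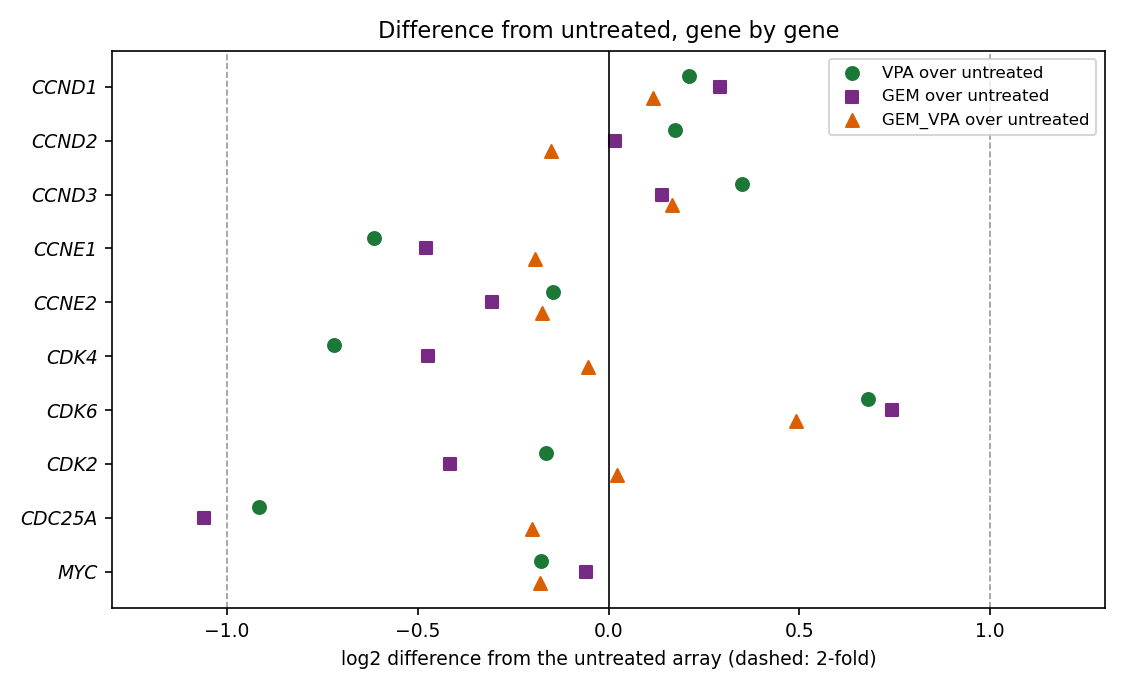
Log2 difference from the untreated array (horizontal axis, dashed lines at 2-fold) for each gene (vertical axis), with circles for VPA, squares for GEM and triangles for the combination. CDC25A with GEM (-1.06) is the only point beyond a dashed line, and CDK6 stands to the right on all 3 treated arrays.

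The counts past each fold limit among the 10 genes are set beside the shares of all genes. In 9 genes, a count of 0 or 1 cannot be told from a share of a few percent. With VPA 0 of the 9 genes at level passed, beside 4.00% of all genes at level, and with GEM 1 of 9 passed, beside 4.49%. With the combination 0 of 9 passed, beside 0.148%. At 1.5-fold, VPA counted 4 of 9 (CCNE1, CDK4 and CDC25A lower, CDK6 higher) beside 17.0%, and GEM counted 2 of 9 (CDC25A lower, CDK6 higher) beside 17.0%. With the combination 0 of 9 reached 1.5-fold, beside 1.60%. The median log2 difference over the 9 genes at level was -0.16 with VPA, -0.31 with GEM and -0.05 with the combination, beside -0.05, -0.04 and -0.03 over all genes at level. Over all 10 genes it was -0.15, -0.18 and -0.10, and the VPA value became -0.04 after a second quantile normalization. The 3 comparisons share the untreated array, so their values are given side by side only.

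The combination was also set against each drug alone, which asks what the second agent added. Over GEM, CDC25A was 1.82-fold higher (0.86), CDK2 was higher by 0.44, CDK4 by 0.42 and CCNE1 by 0.28, and CDK6 was lower (-0.25). Over VPA, CDC25A was 1.64-fold higher (0.71), CDK4 1.59-fold (0.67) and CCNE1 1.34-fold (0.42), and CDK6 was again lower (-0.19). The 2-fold rule passed 0 of 9 genes in both, beside 5.38% and 3.16% of all genes at level. At 1.5-fold the count was 1 of 9 over GEM (CDC25A), beside 18.5%, and 2 of 9 over VPA (CDC25A and CDK4), beside 15.1%. The single drugs themselves were close, and GEM over VPA lay between -0.25 for CDK2 and 0.25 for CDK4, with 0 of 9 genes past 2-fold beside 0.305%.

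**Figure D3:**
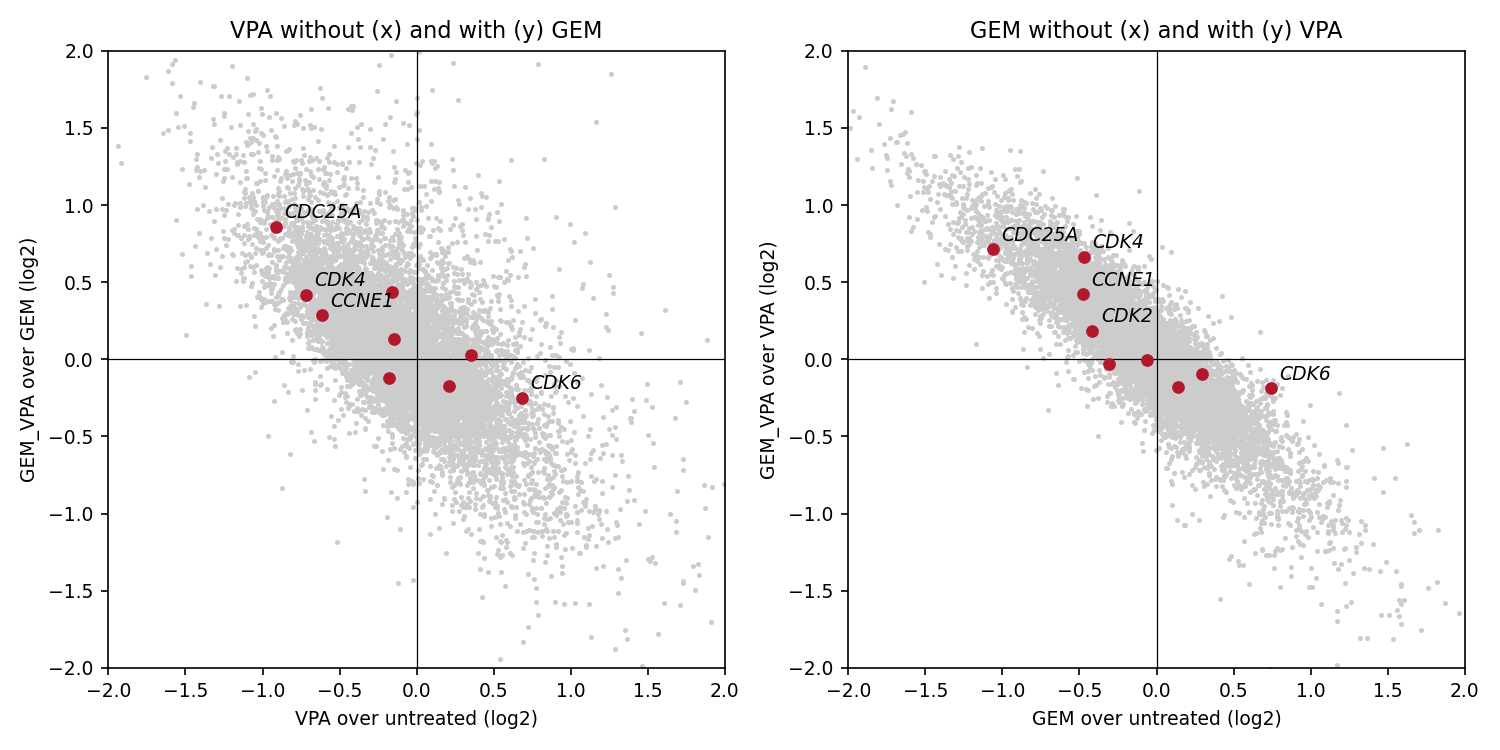
Each panel sets the log2 difference made by a drug alone (horizontal axis) against the difference made by the same drug on top of the other (vertical axis), from pairs of arrays that share none. Grey points are 11267 genes with a mean level at or above the median, of which those beyond 2 on either axis are not drawn, and red points are the 9 genes at level. CDC25A, CDK4 and CCNE1 lie to the upper left in both panels and CDK6 to the lower right.

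If the drugs acted additively on the log2 scale, the combination would equal the sum of the single-drug differences. The departure from that sum was 1.78 for CDC25A, 1.14 for CDK4, 0.90 for CCNE1 and 0.60 for CDK2. It was -0.93 for CDK6, and between -0.39 and 0.28 for the remaining 5 genes. CDC25A and CDK4 passed a departure of 1, so 2 of 9 did, beside 20.4% of all genes at level, which is near that background. CDC25A was among the larger departures, with 375 of 11797 genes above it.

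Across arrays, CDC25A, CDK4, CCNE1 and CDK2 were lower on both single-drug arrays than on both others, 4 of 9 genes at level beside 39.6% of all genes. CCND1 and CDK6 were higher on both, 2 of 9 beside 30.6%. CCND3, CCNE2 and MYC overlapped. Both shares are near the background.

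Each drug's average effect, over arrays without and with the other drug, was tested in limma with an additive model that leaves 1 residual degree of freedom. With Benjamini-Hochberg adjustment 0 of 11267 genes passed for either drug (0.00%), and 0 of the 9 genes tested. At an unadjusted p under 0.05, 21 genes passed for VPA (0.186%) and 0 for GEM (0.00%), none of them among the 9. By limma the largest average effects were 0.22 ± 0.35 (SE, 4 arrays) for CDK6 with VPA and 0.28 ± 0.35 for CDK6 with GEM, with adjusted p = 1.0 for each. For CDC25A the 95% interval of the average VPA effect ran from -1.42 to 1.37. The error of this model also holds the departure from additivity. Where a drug's differences without and with the other drug have opposite signs, as for CDC25A, they cancel in the average and raise the error. The test therefore could not detect changes of that kind, and its lack of calls does not show that the genes were unchanged.

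The regulators upstream and downstream of these genes were counted by the same rule, beside 4.00% of all genes at level with VPA and 4.49% with GEM. Among 9 measured CDK inhibitors and pocket proteins, CDKN1A, which encodes p21, was higher (1.46 with VPA, 1.87 with GEM) and RBL1, which encodes the pocket protein p107, lower (-1.10 and -1.60). CDKN1A read 11.17 untreated, 12.63 with VPA, 13.04 with GEM and 11.05 with the combination. The list's medians were -0.04 with VPA (0.03 after a second quantile normalization), -0.11 with GEM and 0.00 with the combination. Of 10 E2F and DP factors, 0 passed with VPA and 1 with GEM, E2F8, a repressor of the family (-1.11), with medians of -0.36 and -0.40, and -0.06 with the combination.

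Targets of E2F at the start of S phase were lower as a list. Of 19 measured, 10 were at least 2-fold lower with VPA and 10 with GEM, 0 were higher, and the medians were -1.03 and -1.18. ORC1, an origin recognition subunit, was at -1.56 and -1.73, and the helicase subunit MCM5 at -1.47 and -1.58. With the combination 0 of 19 passed and the median was -0.10. Below 0 were 15 of 19 in that comparison, beside 56.7% of all genes at level. The decreases of CCNE1 (-0.61 and -0.48) and CDC25A (-0.92 and -1.06), themselves E2F targets, were smaller than these medians. Background shares of genes at least 2-fold lower were 2.09% with VPA and 3.01% with GEM. After a second quantile normalization 8 of 19 passed with VPA. This list, like the others, was chosen with earlier results of these data known, so its counts are descriptive only. Several of its genes are MCM helicase subunits and are not independent of each other.

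Most other cyclins, kinases and their regulators read below untreated. Of 19 measured, 15 were below 0 with VPA and 16 with GEM, beside 55.3% and 55.4% of all genes at level. CCNG1, CCNG2 and CDK5, named after their values were seen, were above 0 with both, as was CCNA1 with VPA (0.07, at levels below the median). CCNG2, an atypical cyclin outside the G1 step, was at 0.95 and 0.69. At 2-fold, 2 were lower with VPA (CCNB1 at -1.23 and CCNB2 at -1.02, mitotic cyclins) and 4 with GEM, beside 2.09% and 3.01% of all genes at level, and the medians were -0.55 and -0.55. With GEM these were CCNB2 (-1.47), CCNB1 (-1.36), CDC25C (-1.24), a phosphatase of mitotic entry, and CCNA2 (-1.18), the cyclin of S phase. After a second quantile normalization 1 passed with VPA, and under median centring 3 did. Among 16 genes of cyclin and MYC protein turnover, SKP2, which targets p27 for destruction, was 2-fold lower with VPA (-1.01) and FBXO4, of a ubiquitin ligase complex, with GEM (-1.11), 1 of 16 each. Their medians of -0.09 and -0.04 were -0.01 and 0.04 after a second quantile normalization, under which 0 passed with VPA. Under median centring 2 passed with VPA and 3 with GEM.

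MYC itself spanned little, and most of its targets read below untreated on the single-drug arrays. Of 29 measured MYC target genes, all 29 were below 0 with VPA and 28 with GEM, where MYBBP1A (0.01) was the exception, beside 55.3% and 55.4% of all genes at level. After a second quantile normalization BOP1 was above 0 with VPA. The medians were -0.58 and -0.42, and -0.09 with the combination. With the combination 25 of 29 were still below 0, beside 56.7% of all genes at level. A second quantile normalization left 23 of 29 below 0 there, beside 52.3%. The 2-fold rule passed 5 with VPA and 1 with GEM, all of them lower, beside 2.09% and 3.01% of all genes at level. The count of 1 of 29 with GEM is near that background. Under median centring 7 and 3 were 2-fold lower, beside 301 of 11623 and 401 of 11599 genes at level. The chaperonin HSPE1 was at -1.36 and -1.22, MRTO4, of ribosome assembly, at -1.26 with VPA, UTP20, of pre-ribosomal RNA processing, at -1.26, and DKC1, which encodes dyskerin, at -1.23.

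Factors of the MYC network were mixed. The list held genes of the families around MAX and the related MLX. It also held genes outside those families, such as KAT5 (-0.91 with VPA and -0.80 with GEM). Of 18 measured, 2 were 2-fold higher with each drug and 0 lower, with medians of 0.01 (-0.04 under median centring) and 0.07. All genes at level that were 2-fold higher made up 1.90% with VPA and 1.48% with GEM. MXD1, a repressor that competes with MYC for MAX, read 8.56 untreated, 9.76 with VPA, 9.80 with GEM and 8.46 with the combination. It was thus higher on both single-drug arrays, by 1.21 and 1.25. MXD4, of the same family, was 2-fold higher with GEM (1.01), and MLXIPL, a glucose-responsive factor that binds MLX, with VPA (1.04). Under median centring 1 passed with either drug. Of 9 reference transcripts 0 passed in the VPA, GEM and combination comparisons with untreated. Their medians were -0.03 and -0.03 for the single drugs (0.03 and 0.01 after a second quantile normalization) and 0.00 for the combination. Single reference transcripts moved further, such as HPRT1 (-0.46 with VPA, -0.85 with GEM) and B2M (0.56 and 0.52). HPRT1 (1.31) and B2M (-1.20) also passed a departure from additivity of 1 in size, beside 20.4% of all genes at level.

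**Figure D4:**
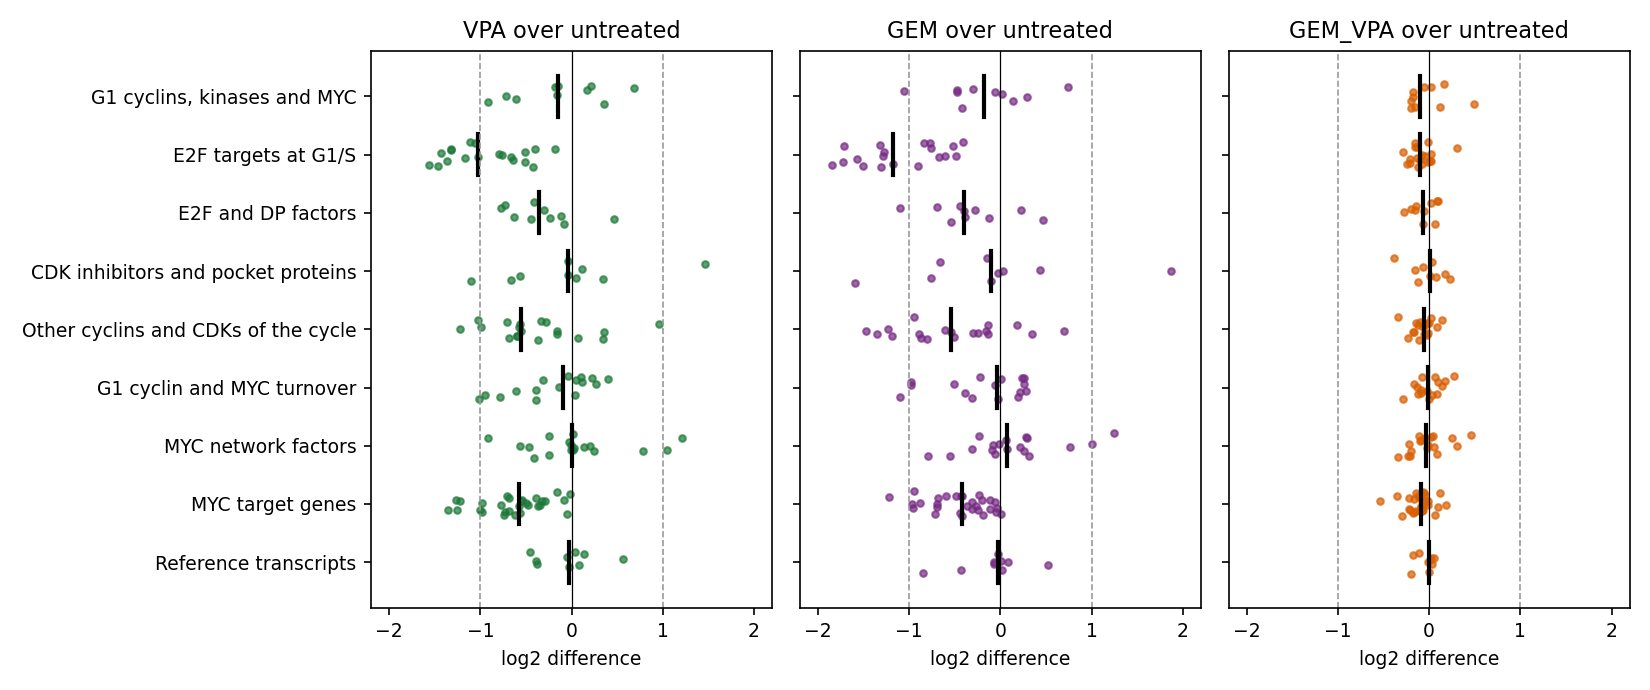
Log2 difference from untreated (horizontal axis, dashed lines at 2-fold) for the genes of each list (vertical axis), 1 point per gene with the list median as a bar, for VPA, GEM and the combination. E2F targets and MYC target genes lie to the left of 0 on the single-drug panels (medians -1.03 and -0.58 with VPA). On the combination panel the list medians lie between -0.10 and 0.00. There 25 of 29 MYC target genes, 15 of 19 E2F targets and 15 of 19 other cyclins and CDKs lie below 0.

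Profiles over the 4 arrays were matched against 3945 genes at level that spanned at least 0.5, by the root mean square difference of centred log2 levels. With only 4 points, close matches are easy to find among so many genes. CDC25A was nearest to RACGAP1P1 (0.02), a pseudogene whose probes may read its parent gene, then RAD54L, of recombination repair, and OIP5, a centromere factor (0.03 each). CDK4 was nearest to TRIM28, a corepressor, PRXL2C and DFFB, a nuclease of apoptosis (0.01 each), and CCNE1 to C1D, MRPS9 and CCDC12 (0.01 each). CDK6 was nearest to LAMC1, a laminin chain (0.02), LINC02901 and UBR4, a ubiquitin ligase (0.03 each). Among the 10 genes, CDK4 and CCNE1 differed by 0.09, CDK4 and CDC25A by 0.22, and CDK4 and CDK6 by 0.56.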

How the data were processed

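RNA of HuCCT1 cells was hybridised to Affymetrix Human Gene 1.0 ST arrays, 1 array per group. The authors deposited log2 intensities that were normalized with RMA, per the submitters' processing notes, and with GeneSpring GX 11.5, per the labels. RMA subtracts background and evens out arrays, so array-wide shifts are reduced and low values are compressed. Small shifts remained, with array medians from 7.87 (combination) to 7.92 (VPA). No build of the rows is named in these sources. The table held 28869 rows, of which 19310 had 1 symbol in the platform annotation, 1752 several and 7807 none. Rows with 1 symbol were averaged to 18377 genes. The number of arrays limits precision.

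Computed here were differences of log2 levels, with a limit of 2-fold (the authors' ratios of 2.0 and 0.5) and the level filter. The limma 3.58.1 fit (R 4.3.3, lmFit and eBayes) used 11267 genes with mean level at or above the median and an adjusted p threshold of 0.05. Python 3.11.15 and numpy 2.4.6 did the rest. Both steps were tested on simulated data, with only an additive effect in the case of limma. Named genes were the 10 members, up to 4 genes of each list past 2-fold, and the 3 nearest profiles. The members and lists were chosen with earlier results of these data known. Alternatives covered scaling, level filter, fold limit, choice of row and the variance prior.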

Additional observations from a re-analysis of the deposited data

Results flagged for a closer look

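CDK4 and CDC25A were flagged because they passed a departure of 1 and also reversed direction. The change with a drug ran one way without the other drug and the opposite way with it. CDC25A differed by -0.92 with VPA alone and by 0.86 when VPA was added to GEM, and by -1.06 with GEM alone and by 0.71 when GEM was added to VPA. CDK4 differed by -0.72 and 0.42 for VPA, and by -0.47 and 0.67 for GEM. There was 1 array per condition, so the difference was not tested. A departure of at least 1 in size was seen in 20.4% of all genes at level. The reversal alone is not particular to CDK4 and CDC25A. CCNE1, CDK2, CDK6, CCND1 and, at levels below the median, CCND2 also reversed for both drugs. Such a reversal places both single-drug arrays lower (39.6% of all genes with a mean level at or above the median) or higher (30.6%) than both others.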

How the results depend on the processing

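No paired analysis was possible because each group had 1 array, and for the same reason no replicate could be left out. The number of the 10 genes past the rule moved by more than 1.5 times only with the fold limit. At 1.5-fold it was 4 for VPA over untreated (0 at 2-fold), 2 for GEM over untreated (1 at 2-fold), 1 when the combination was set against GEM, 2 when it was set against VPA and 5 for the departure from additivity (2 at a departure of 1). At 3-fold it was 0 for GEM over untreated and 1 for the departure. The other 47 alternative counts stayed within 1.5 times the value given, and the departure count was 3 after a second quantile normalization, where CDK6 joined it at -1.11. Of 140 values for single genes under other scalings, the remaining 139 kept their side of the limit. Choosing another row could change no member's value, since each has 1 row. Differences near 0 changed sign with scaling: CCND2 for GEM over untreated, CCND3 for the combination over GEM, CCNE2 and MYC for the combination over VPA, and the departure of MYC (0.06, -0.04 and 0.16). By limma 0 of the 9 or 10 genes tested passed under any setting run.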

Other observations

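The CDK inhibitors that act on CDK4 and CDK6 did not move together. CDKN2A was at -0.57 with VPA, -0.66 with GEM and -0.39 with the combination, while CDKN2B was at 0.35, 0.43 and -0.16. CDKN2D, a further gene of this class, was at 0.11, -0.11 and 0.00. CDKN1B, which encodes p27, read 10.47 untreated, 9.80 with VPA, 9.71 with GEM and 10.40 with the combination, so its log2 differences of -0.67 and -0.76 ran opposite to those of CDKN1A. RB1 lay within 0.18 of untreated on every array. These genes were named after their values were seen, and none of the values quoted reached 2-fold against untreated.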
